A study of Arabidopsis thaliana with 6 samples.

Results

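The WUSCHEL and CLAVATA genes keep the stem cells of the shoot apex in number, and 10 of them were looked up by locus among 27444 protein-coding genes: WUS, CLV3, CLV1, BAM1, BAM2, BAM3, CLV2, CRN, RPK2 and POL. RGA-GFP gave a pooled peak at CLV1, BAM1, BAM2 and CRN, 4 of the 10, beside 29.4% of all protein-coding genes. Each of the 4 also had a peak in all 3 RGA-GFP libraries, as did 7167 of the 8063 protein-coding genes with a pooled peak. RPK2 had a peak in 3 RGA-GFP libraries and POL in 2, both without a pooled peak, and WUS, CLV3, BAM3 and CLV2 were not among the genes that the authors list with a replicate peak. The data are chromatin immunoprecipitation and sequencing (ChIP-seq) of Arabidopsis thaliana inflorescence apices. The RGA-GFP plants expressed RGAp:GFP-rga-delta17, a GFP fusion of the DELLA protein RGA that gibberellin cannot remove, under the control of the RGA promoter. Wild type plants had no GFP, and the same anti-GFP pull-down from them measured the background. Both groups were of the Landsberg-erecta accession, which carries a lesion in the receptor kinase gene ERECTA, and each had 3 biological replicates. The tissue was bulk apices, so a site bound in few cells and a site bound weakly in many cannot be told apart.

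As background, WUS is a homeodomain transcription factor made in the organising centre below the stem cells, from which it moves upwards and turns on CLV3. CLV3 encodes a small secreted peptide that is sensed by leucine-rich repeat receptors and that limits WUS expression, which closes a feedback loop. DELLA proteins such as RGA are nuclear repressors of gibberellin responses that act on DNA through partner transcription factors.

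Folds, q values and positions (TAIR10 build) come from the authors' peak lists. A fold in a single library is the summit pileup over that library's own local background, while a fold in the pooled list is the combined RGA-GFP signal over the combined wild type, so the 2 kinds of fold are not on the same scale. The RGA-GFP libraries kept 14644122 to 16745139 tags without duplicates and held 9343 to 11116 peaks, and the wild type libraries kept 3999159 to 10014730 tags and held 285 to 972 peaks. A wild type site could therefore be missed at a depth at which an RGA-GFP site was called.

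The authors' deposited table lists a gene where at least 1 RGA-GFP replicate had a peak in its window, and it held 6 of the 10 genes, with 46.1% of all protein-coding genes listed. The windows were often shorter than the flanks the headers name: 53.8% of those of protein-coding genes were under 4500 bp, as were those of CRN (2766 bp) and BAM2 (4329 bp). A gene outside the table has no window here, so pooled and wild type peaks could not be looked up for it. The windows of the 6 contained 13 separate sites, of which 9 had a peak in all 3 RGA-GFP libraries, 10 had a pooled peak and 1 had a wild type peak. A pooled peak was found for 4 of the 10 genes, all among the 6 with a window, beside 29.4% of all protein-coding genes (29.7% by the fold in the authors' deposited table), and a peak in all 3 RGA-GFP libraries for 5 of the 10, beside 30.9%. With 10 genes these counts lie near the background shares and are a description of the individual loci. A wild type peak lay in 1 of the 6 windows, beside 8.13% of all protein-coding genes with a window. Of the 4 genes with a pooled peak it was 1, beside 9.88% of all protein-coding genes with a pooled peak. A pooled fold of 2 or more was reached by 3 of those 4, beside 17.6%.

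**Figure D1:**
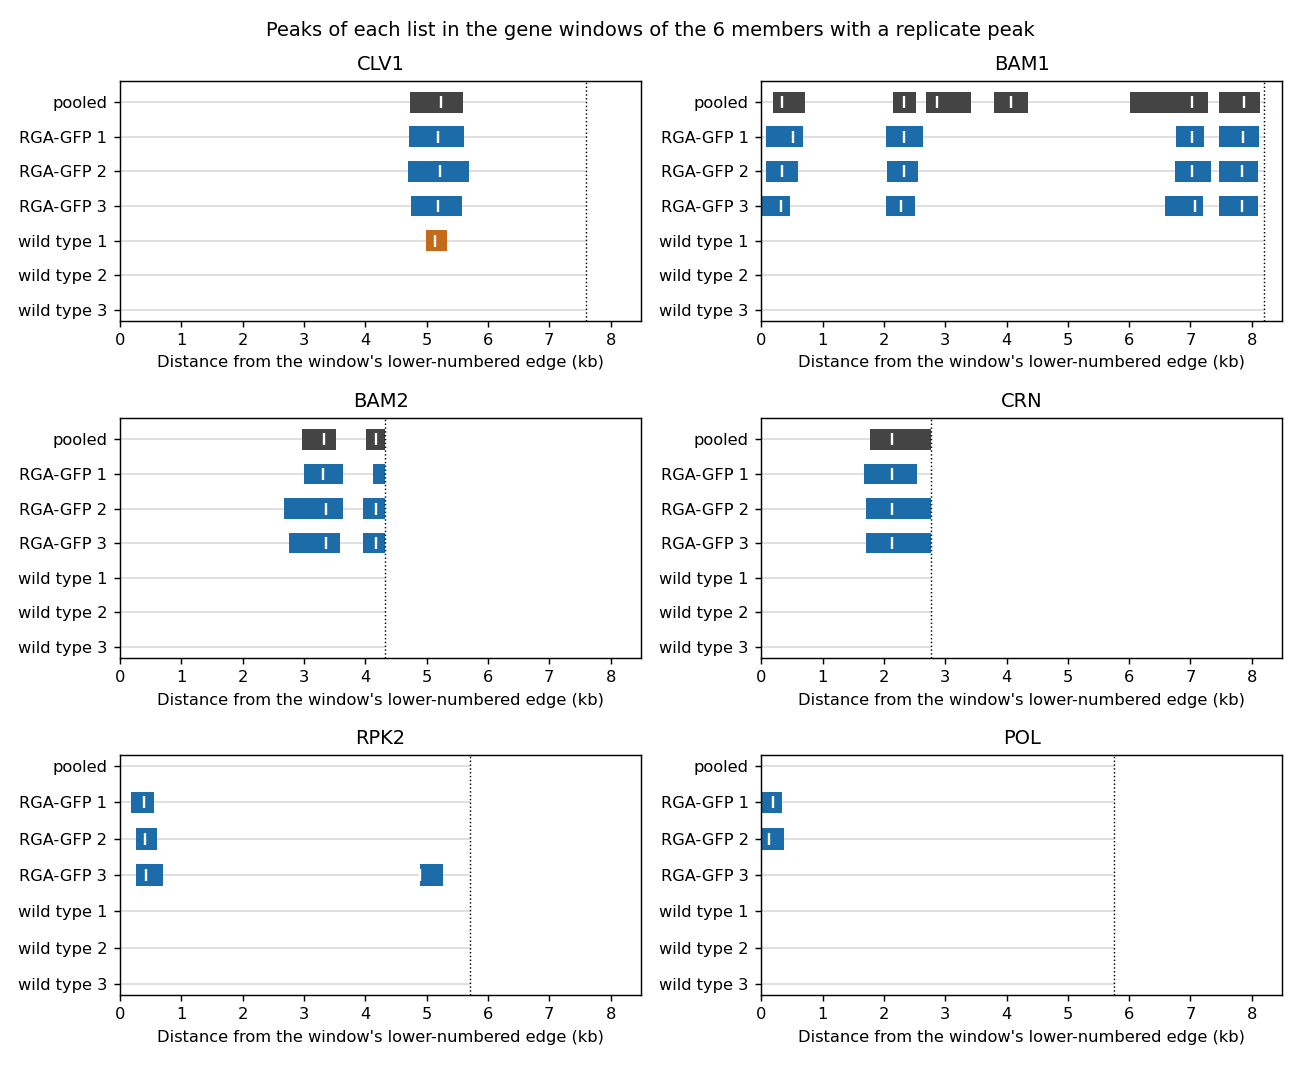
Peaks along the gene windows of the 6 members listed by the authors (horizontal axis, distance in kb from the lower-numbered edge of the window; dotted line, its other edge). Bars are peaks of the pooled list (grey), the RGA-GFP libraries (blue) and the wild type libraries (orange), and white ticks are summits. CLV1 and CRN each show 1 site, BAM1 shows 6 pooled peaks, RPK2 and POL have RGA-GFP peaks but no pooled peak, and only CLV1 has a wild type peak.

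WUS (AT2G17950), the central transcription factor, was not in the table, so no RGA-GFP library had a peak in its window at the cutoff the authors used. Neither of the protein-coding genes next to it, AT2G17940 and AT2G17960, was in the table either. CLV3 (AT2G27250), the peptide gene that WUS turns on, was likewise not listed. Its neighbour AT2G27260 was, with a peak at chromosome 2, 11669662 to 11670341, that had a pooled fold of 1.86. In the RGA-GFP libraries the strongest peak over that position had folds of 2.11, 2.32 and 1.76, and no wild type library had a peak in the AT2G27260 window. The authors' windows assign that peak to AT2G27260 and not to CLV3.

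CLV1 (AT1G75820), the leucine-rich repeat receptor kinase that binds the CLV3 peptide, had the highest replicate folds of the 10 genes. Its site covered chromosome 1, 28467057 to 28468049, and lay in no other gene's window. The folds were 4.55, 4.16 and 3.73 in RGA-GFP libraries 1, 2 and 3 (mean 4.15 ± 0.41, SD, n = 3), against 2.24 in wild type library 1 and no peak in wild type libraries 2 and 3. Every RGA-GFP library lay above the wild type peak, and in each RGA-GFP list at least 98.38% of peaks had a lower fold. The −log10 q was 96.5, 85.3 and 66.0 in the RGA-GFP libraries and 7.23 in wild type library 1. Summits of the RGA-GFP libraries fell within 43 bp of each other, and the wild type summit lay 53 to 96 bp from them. Wild type library 1 and the RGA-GFP libraries thus had their peaks at the same place. Scaled to 1000000 tags kept, the summit pileup was 20.8, 18.9 and 15.7 in the RGA-GFP libraries and 7.59 in wild type library 1, a ratio of 2.74, 2.49 and 2.07. In the pooled list, which takes the wild type as its background, the CLV1 fold was 2.07 with a −log10 q of 20.6, above 89.2% of pooled peaks. The part of the wild type signal in the CLV1 value was not tested.

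The BAM genes encode the closest relatives of CLV1, receptor kinases that sense CLV3-type peptides and partly replace CLV1 when it is lost. BAM2 (AT3G49670) had its main site at chromosome 3, 18420949 to 18421914, with folds of 3.68, 3.52 and 2.97 in RGA-GFP libraries 1, 2 and 3 (mean 3.39 ± 0.37, SD, n = 3) and no peak in any wild type library. The pooled fold there was 2.01, above 86.3% of pooled peaks. A weaker BAM2 site at chromosome 3, 18422238 to 18422962, had folds of 1.73, 1.87 and 1.82 in the RGA-GFP libraries and a pooled fold of 1.67. All 3 libraries therefore held both sites, with the main one higher in each. At the weaker site the RGA-GFP summits spread over 355 bp, and the summit of library 1 lay outside the BAM2 window. Both sites also lay in the window of BCAT3 (AT3G49680), which encodes a branched-chain aminotransferase, so the assignment to BAM2 alone cannot be made.

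BAM1 (AT5G65700) had several moderate sites. Its window held 6 pooled peaks that covered 50.2% of its 8203 bp. Of all protein-coding genes with a pooled peak, 0.0496% (4 of 8063) had 6 or more, and 28.5% had at least 2; this feature was singled out after the values were seen. The window was also long, longer than 95.9% of the windows of protein-coding genes, whose median was 4310 bp. Of the 6 pooled peaks, 4 had a peak in all 3 RGA-GFP libraries and 2 had a peak in none, and no wild type library had a peak in the window.

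The highest replicate folds of BAM1 were at its last site, chromosome 5, 26286169 to 26286849, with 2.65, 2.68 and 2.33 in RGA-GFP libraries 1, 2 and 3 (mean 2.55 ± 0.20, SD, n = 3) and a pooled fold of 1.66. A second site of similar height lay at chromosome 5, 26280741 to 26281352, with 2.50, 2.45 and 2.18 and a pooled fold of 1.61. The remaining replicated sites were lower. At chromosome 5, 26284726 to 26286037, the folds were 1.52, 1.85 and 1.76, and at 26278498 to 26279430 they were 1.82, 1.84 and 1.67. The first of this lower pair had the highest pooled fold of the window, 1.76, so the order of the BAM1 sites in the pooled list was not that of the single libraries. The 2 pooled peaks without a replicate peak had pooled folds of 1.56 and 1.53.

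BAM3 (AT4G20270), the receptor kinase of the same family known for its role in phloem, was not in the table. Its neighbours were both listed. PCAP1 (AT4G20260) had a pooled fold of 1.98, and TAF11 (AT4G20280), a subunit of the general transcription factor TFIID, had peaks in all 3 RGA-GFP libraries, with folds of 1.61, 1.97 and 2.25, and no pooled peak.

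CLV2 (AT1G65380) encodes a receptor-like protein without a kinase domain, and CRN (AT5G13290) a membrane pseudokinase; the 2 proteins form a complex that carries the CLV3 signal beside CLV1. The partners differed in the peak lists. CLV2 was not in the table and was given no window, and neither were its neighbours AT1G65370 and PP2-A5 (AT1G65390). CRN had a single site at chromosome 5, 4254506 to 4255756, with folds of 4.46, 4.11 and 3.64 in RGA-GFP libraries 1, 2 and 3 (mean 4.07 ± 0.41, SD, n = 3) and no peak in any wild type library. At least 98.2% of the peaks of each RGA-GFP list had a lower fold, and the summits of the 3 libraries fell within 9 bp. The CRN pooled fold of 2.32, with a −log10 q of 22.1, was the highest of the 10 genes and above 96.5% of pooled peaks. The site also lay in the window of SFC (AT5G13300), an ARF-GAP gene known for its role in vein patterning, and it cannot be given to CRN alone. Of the 4 genes with a pooled peak, 2 shared the strongest one with another window, beside 71.9% of all protein-coding genes with a pooled peak.

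RPK2 (AT3G02130), a receptor kinase that takes part in CLV3 signalling apart from CLV1, had peaks in all 3 RGA-GFP libraries but none in the pooled list. At its main site, chromosome 3, 379797 to 380310, the folds were 2.13, 1.74 and 1.83 in RGA-GFP libraries 1, 2 and 3 (mean 1.90 ± 0.20, SD, n = 3), and no wild type library had a peak in the window. Only library 1 reached a −log10 q of 10 there, with 12.7, against 6.57 and 8.03 in libraries 2 and 3. A further peak in library 3 alone had a fold of 1.37 and a −log10 q of 2.00, below the cutoff of 3 that the authors set for replicate peaks in their table. Of the 8478 protein-coding genes with a peak in all 3 RGA-GFP libraries, 15.5% had no pooled peak, like RPK2. The median over genes of the mean highest fold was 1.98 in those without a pooled peak and 2.36 in those with one, and RPK2 lay at 1.90. Its main site was also in the window of the neighbouring gene AT3G02125.

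POL (AT2G46920), a protein phosphatase that acts downstream of the receptors and favours WUS expression, had the weakest signal of the listed genes. Its site at chromosome 2, 19277637 to 19278136, had folds of 1.71 and 1.78 in RGA-GFP libraries 1 and 2 and no peak in library 3, and no wild type library had a peak in the window. The −log10 q was 4.26 and 5.53. There was no pooled peak, which was also so for 64.9% of the 2041 protein-coding genes with a peak in 2 RGA-GFP libraries. The window of the neighbour AT2G46915 held the same site.

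**Figure D2:**
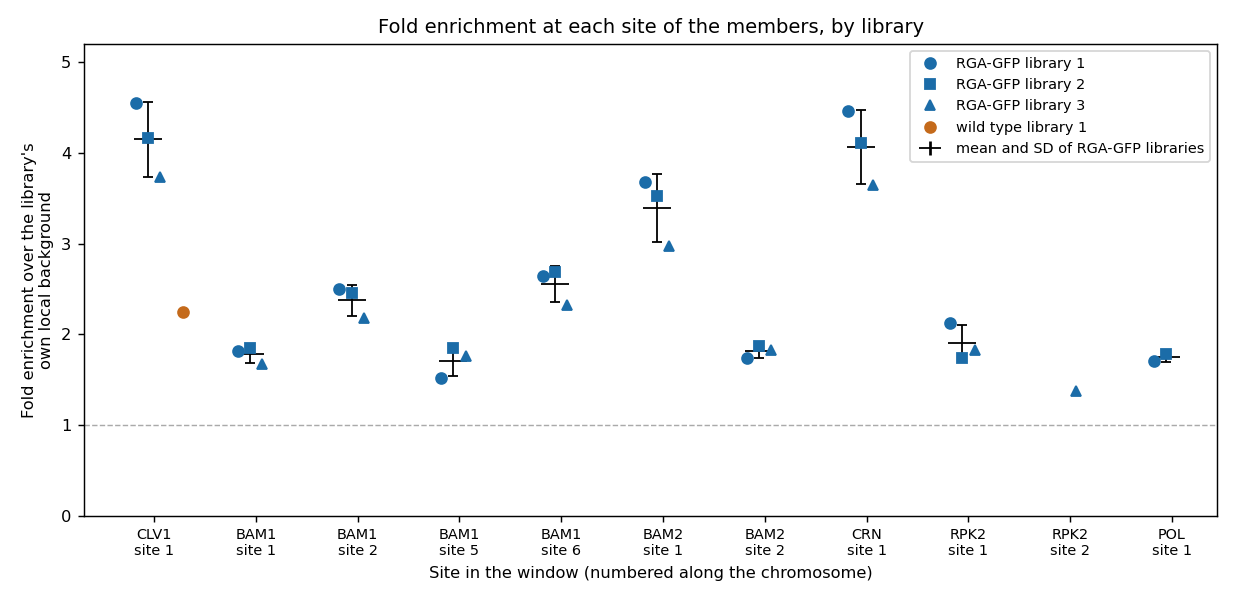
Fold enrichment over the library's own local background (vertical axis) at each of the 11 sites with an RGA-GFP peak, by library; black bars are the mean and SD of the RGA-GFP libraries with a peak. CLV1, CRN and the main BAM2 site lie highest, with means of 4.15, 4.07 and 3.39, and the 1 wild type point, 2.24, is at CLV1.

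The 5 genes with a peak in all 3 RGA-GFP libraries ranked CLV1, CRN, BAM2, BAM1 and RPK2 by the mean of the highest fold in the window. CLV1 lay above CRN by a mean of 0.08 ± 0.02 (SD of the difference over libraries, n = 3). BAM2 lay below CLV1 by 0.76 ± 0.11 and below CRN by 0.68 ± 0.09 (SD of the difference, n = 3 each). BAM2 lay above BAM1 by 0.84 ± 0.20, and BAM1 above RPK2 by 0.65 ± 0.25 (SD of the difference, n = 3 each). All 10 pairwise differences had the same sign in the 3 libraries, and each gave p = 0.25 in an exact sign-flip test over libraries, two-sided, adjusted p = 0.25 over the 10 pairs, the smallest that 3 libraries can give. The 10 pairs reuse the same 5 genes, and no call on their order can rest on this test. Among all genes with a peak in all 3 RGA-GFP libraries, 97.9%, 97.7%, 92.3%, 66.7% and 17.0% had a lower mean than CLV1, CRN, BAM2, BAM1 and RPK2. RGA-GFP library 3 was the lowest at CLV1, CRN, BAM2 and BAM1, and was also the lowest over the 6281 pooled peaks found in all 3 libraries, with a median of 2.11 against 2.43 and 2.38 in libraries 1 and 2. Divided by that median, the CLV1 folds were 1.87, 1.75 and 1.77, and the CRN folds 1.83, 1.73 and 1.73.

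The measure changed part of the order. Scaled to 1000000 tags kept, the summit pileup of the same peaks was 18.5 ± 2.6 at CLV1, 14.2 ± 2.1 at BAM2, 13.8 ± 1.4 at CRN, 11.0 ± 1.2 at BAM1 and 8.14 ± 0.76 at RPK2 (SD, n = 3 each), which gave BAM2 the higher mean of BAM2 and CRN; that difference was not tested. By the pooled fold the order was CRN, CLV1, BAM2 and BAM1, with 2.32, 2.07, 2.01 and 1.76. CLV1 stood above CRN in the single libraries and below it in the pooled list. CLV1 was also the 1 gene with a wild type peak under its site, and a link between the 2 was not tested.

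**Figure D3:**
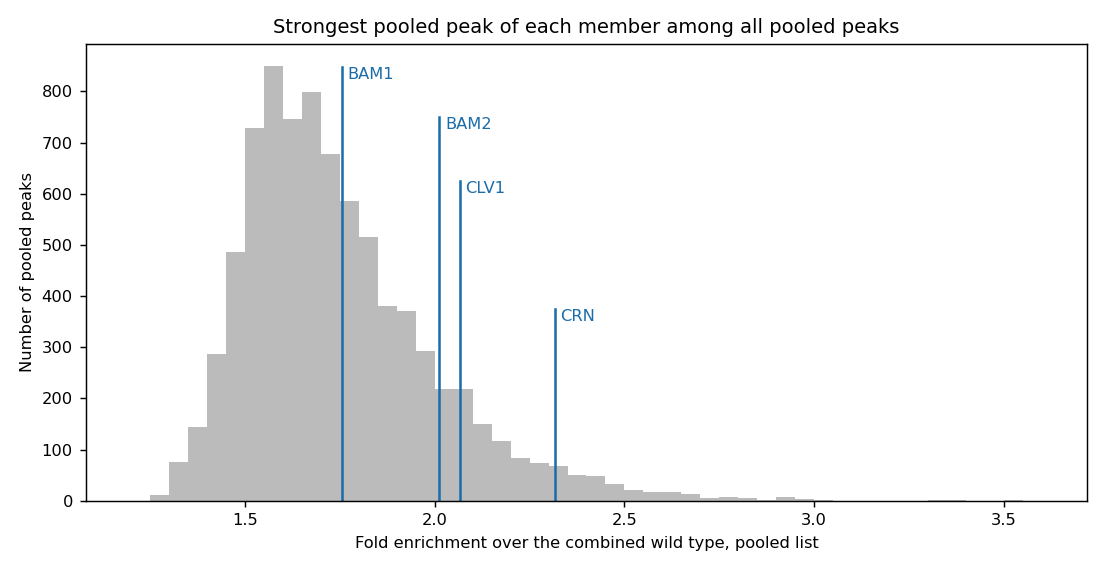
Histogram of the fold enrichment of all 8112 pooled peaks over the combined wild type (horizontal axis, fold; vertical axis, number of peaks), with lines at the strongest pooled peak of BAM1, BAM2, CLV1 and CRN. BAM1 at 1.76 lies near the median of 1.70, and the other 3 lie in the upper part.

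Presence of a peak was compared between the groups gene by gene. CRN, BAM1, BAM2 and RPK2 had a peak in 3 of 3 RGA-GFP libraries and in 0 of 3 wild type libraries (Fisher's exact test, two-sided, p = 0.1, adjusted p = 0.169 over 13426 windows). CLV1 had one in 3 of 3 RGA-GFP and 1 of 3 wild type libraries, and POL in 2 of 3 RGA-GFP and 0 of 3 wild type libraries (Fisher's exact test, two-sided, p = 0.4, adjusted p = 0.495, each). With 3 against 3 libraries the smallest p is 0.1, so none of the 13426 windows passed, with 0 also at an unadjusted p under 0.05, and 7961 windows had the pattern of 3 against 0. No call between the groups can rest on this test.

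Other genes of the pathway were taken as a list of 31: 11 of transcription in the stem cell niche, 9 of receptors and kinases, 4 peptide genes and 7 of phosphatases and signalling. A pooled peak was found at 22 of the 31, beside 29.4% of all protein-coding genes, and the median pooled fold at those 22 was 1.87, beside 1.74 over all genes with a pooled peak. Only genes with a window could have a pooled peak counted, and 28 of the 31 had one, beside 46.1% of all protein-coding genes. Among genes with a window, a pooled peak was found at 22 of 28, beside 8063 of 12642 protein-coding genes. The list was chosen with results of these data known, and no test was made on it. At a −log10 q of at least 10, 11 of the 31 kept a pooled peak, beside 8.73% of all protein-coding genes. A wild type peak lay in 5 of the 28 windows of listed genes, beside 8.13% of all protein-coding genes with a window.

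Among the relatives of WUS, WOX1 (AT3G18010), which acts in leaf blade outgrowth, had a pooled fold of 2.48 at chromosome 3, 6160500 to 6162115, and 2.88 ± 0.18 in the RGA-GFP libraries (SD, n = 3), with no wild type peak in the window. PRS (AT2G28610), the WOX gene of lateral organ margins, had a pooled fold of 2.42 at chromosome 2, 12259277 to 12259720, and 3.57 ± 0.40 in the RGA-GFP libraries (SD, n = 3). A wild type library 3 peak elsewhere in the PRS window had a fold of 3.84. WOX4 had no pooled peak and WOX5, the relative of WUS in the root niche, was not in the table. Of the 4 WOX genes listed, WOX1 and PRS thus had pooled peaks and the other two did not. TPL (AT1G15750), a co-repressor that binds WUS, had a pooled fold of 2.09 and 4.32 ± 0.24 in the RGA-GFP libraries (SD, n = 3), and its peak overlapped a wild type library 1 peak with a fold of 2.15. HAM1, HAM2, HAM3 and HAM4, whose GRAS proteins work with WUS, had pooled peaks, as did STM and ULT1, with pooled folds below 2. STM and HAM3 had a peak in only 2 RGA-GFP libraries, and HAM2 had a pooled fold of 1.43 with a −log10 q of 2.13. The strongest peaks of HAM1 and ULT1 lay in 2 and 3 windows. The strongest HAM1 peak met a wild type peak that shared less than 50 bp with the HAM1 window. HAM1 is therefore not among the 5 listed genes counted with a wild type peak.

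Of the receptors and kinases, ERL2 (AT5G07180), AT2G23950, ERL1 (AT5G62230) and ER (AT2G26330) had pooled folds of 2.23, 2.12, 2.03 and 2.01. ER, ERL1 and ERL2 are receptor kinases of the ERECTA family, which limit the width of the shoot apex, and ER is the gene with the lesion in this accession. In the RGA-GFP libraries the ER peak had folds of 3.65 ± 0.63 and the ERL1 peak 4.72 ± 0.60 (SD, n = 3 each). The ERL1 peak overlapped a wild type library 1 peak with a fold of 2.41, and a wild type library 1 peak with a fold of 2.62 lay elsewhere in the ERL2 window, while the ER window had none. The strongest peaks of ER and of ERL2 each lay in 2 windows and cannot be given to those genes alone. At AT2G23950, a leucine-rich repeat kinase gene, the RGA-GFP folds were 2.66 ± 0.42 (SD, n = 3) with no wild type peak. RPK1, SARK and CR4 had pooled folds below 2. The RPK1 peak had folds of 4.13 ± 0.52 in the RGA-GFP libraries (SD, n = 3) and lay over a wild type library 1 peak with a fold of 2.50. NIK3, with a peak in 3 RGA-GFP libraries, and AT5G45780, with a peak in 1, had no pooled peak. SARK had a peak in only 2 RGA-GFP libraries, and the CR4 peak lay in 2 windows.

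Of the peptide genes, CLE40 (AT5G12990), the closest relative of CLV3, had a pooled fold of 2.41 at chromosome 5, 4109626 to 4110946, and 2.32 ± 0.21 in the RGA-GFP libraries (SD, n = 3), with no wild type peak. That site lay in 2 windows. CLE17 had a pooled fold below 2 at a peak that lay in 2 windows, CLE27 had no pooled peak and CLE16 was not in the table. Among the phosphatase and signalling genes the highest pooled fold was 1.73, at AGB1 (AT4G34460), the beta subunit of the heterotrimeric G protein. That pooled peak met no peak of a single RGA-GFP library, and the authors' deposited table gives AGB1 a fold of 0. All 3 RGA-GFP libraries had a peak elsewhere in the AGB1 window. Of the relatives of POL, PLL3, PLL4 and PLL5 had pooled peaks and PLL1 and PLL2 had none, and the ubiquitin ligase gene PUB4 was not in the table.

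**Figure D4:**
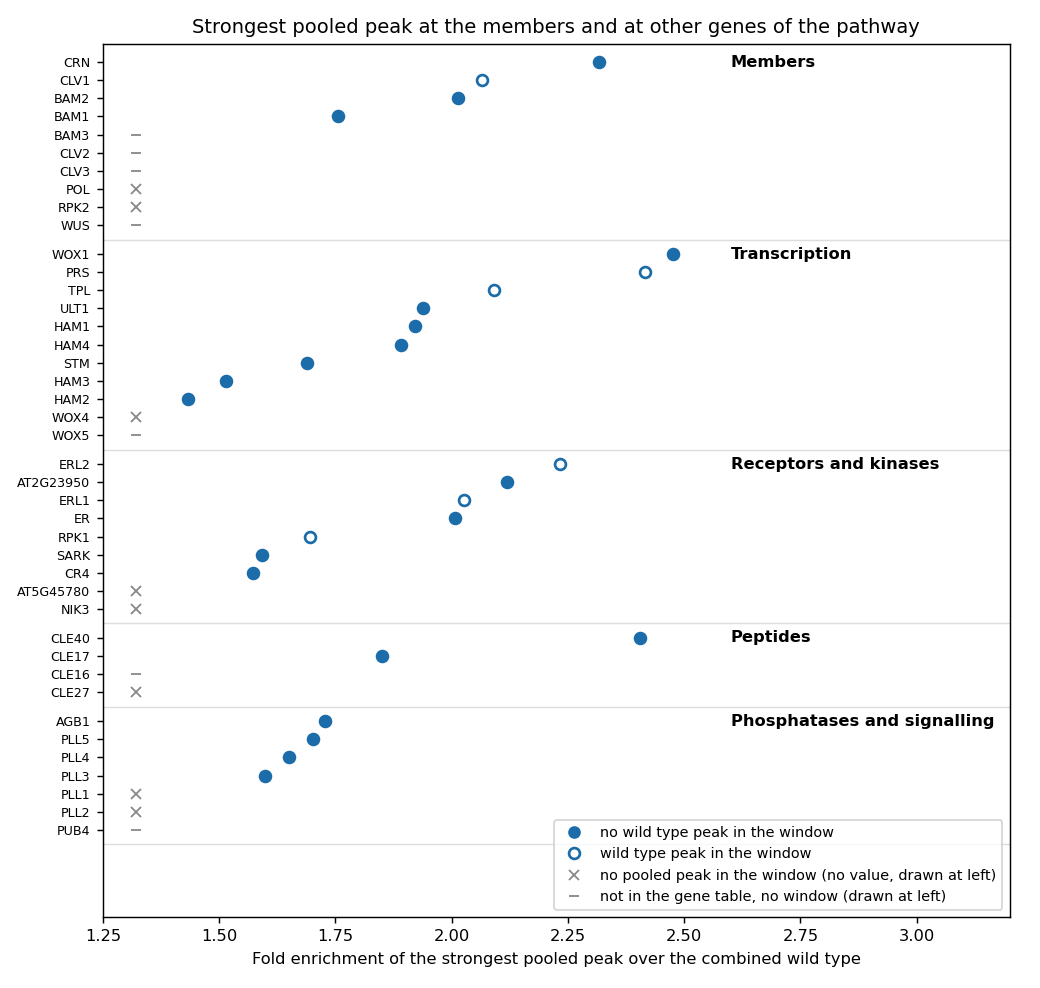
Fold of the strongest pooled peak over the combined wild type (horizontal axis) at the 10 members and the 31 other pathway genes, by group. Open circles have a wild type peak in the window, crosses are genes without a pooled peak in the window, and dashes are genes outside the table, without a window; CRN at 2.32 is the highest member, and WOX1, PRS and CLE40 lie above it at 2.48, 2.42 and 2.41.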

How the data were processed

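Anti-GFP chromatin immunoprecipitates of inflorescence apices were sequenced in 3 RGA-GFP and 3 wild type libraries, grouped by title. Per the submitters' processing notes, Bowtie2, SAMtools, MACS2 2.0.10 and the TAIR10 build were used; the file headers name MACS 2.0.10.20130915. Single libraries had no control in the call, tags were lengthened to 300 bp, 1 tag was kept at each position, peaks passed q = 0.05, and the local background spanned 10000 bp, all per the file headers. For the pooled list the combined wild type libraries were the control of the combined RGA-GFP libraries, and the background spanned 1000 or 10000 bp. Each fold is the authors' ratio of summit pileup to background, each −log10 q is from the authors' q value, and the pileup is the authors' signal, the extended tags over the summit. Gene windows, per the file headers, were set to reach 3000 bp before and 1500 bp after the coding sequence, but 53.8% of those of protein-coding genes were shorter than 4500 bp (median 4310 bp), so many do not hold these flanks in full.

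Members were looked up by locus in the authors' deposited gene table, and a peak counted where it shared at least 50 bp with a window. Overlapping peaks of any list formed a site. Pileups were scaled to 1000000 tags kept in the library. Windows exist only for the 13426 genes of that table, of which 13259 matched RefSeq (assembly TAIR10.1), used for names and gene order; position relative to gene starts or exons, and sequence, were not analysed here. Shares refer to the 27444 protein-coding genes of chromosomes 1 to 5. Libraries with a peak were compared by Fisher's exact test, two-sided, with Benjamini-Hochberg adjustment over all windows, and members by an exact sign-flip test over libraries (Python 3.11.15, SciPy 1.17.1). The overlap code was tested on simulated data. All members are named; other pathway genes with a pooled fold of at least 2, and the highest of each group, are given with values. The members and lists were chosen with earlier results of these data known. Alternatives covered the overlap, the q value, the summit, left-out libraries and the replicate number as a block. P-values rest on these libraries only, and those of the Fisher and McNemar tests only on whether each library had a called peak.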

Additional observations from a re-analysis of the deposited data

How the results depend on the processing

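The count of 4 genes with a pooled peak stayed between 3 and 4 under 6 alternatives: BAM1 was lost at a −log10 q of at least 10, and CLV1 without the pooled peaks that met a wild type peak. The share of all protein-coding genes with a pooled peak was 8.73% at a −log10 q of at least 10, against 29.4% in the main setting. The count of 5 genes with a peak in all 3 RGA-GFP libraries was 4 at a −log10 q of at least 10, without RPK2, and 5 to 6 when a library was left out, POL joining without RGA-GFP library 3. The matching shares of all protein-coding genes were not computed for these settings. The 1 gene with a wild type peak, CLV1, became 0 at a −log10 q of at least 10, and 0 to 1 with a wild type library left out, 0 without wild type library 1. Pathway genes with a pooled peak fell to 11, against 22, at a −log10 q of at least 10. The mean fold of BAM1 was 1.71 at its strongest pooled peak, against 2.55 at its highest replicate peak, which is another site. As summit pileup scaled to 1000000 tags, another unit, the values were 18.5, 11.0, 14.2, 13.8 and 8.14 for CLV1, BAM1, BAM2, CRN and RPK2. Leaving out 1 RGA-GFP library gave mean folds of 3.95 to 4.36 for CLV1, 3.87 to 4.28 for CRN, 3.24 to 3.60 for BAM2, 2.49 to 2.67 for BAM1 and 1.78 to 1.98 for RPK2. With the replicate number as a block, an exact McNemar test gave p = 0.25 for BAM1, BAM2, CRN and RPK2 and p = 0.5 for CLV1 and POL. With 3 pairs the smallest p of that test is 0.25, so no p could pass and no call can rest on the block. The labels do not say what a number shares, and the deviations from the group means of same-numbered libraries, over the windows, correlated at -0.002, 0.047 and -0.010. Depth limits the wild type: library 3 kept 3999159 tags, so a missing wild type peak is no measure of a missing signal.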
